A study of Homo sapiens with 18 samples.

Results

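The clustered protocadherin genes are 53 protein-coding entries of the deposited count matrix whose symbols begin with PCDHA, PCDHB or PCDHG, out of 54425 gene entries in all. The alpha cluster (PCDHA) holds 15 of them, the beta cluster (PCDHB) 16 and the gamma cluster (PCDHG) 22, and 5 pseudogene entries of the same region were left out. The study asked whether short expression of a t(4;11) fusion protein leaves lasting changes in chromatin. It used HEK293T cells, a human embryonic kidney line that carries the SV40 large T antigen, and ATAC-seq, in which a transposase cuts and tags open DNA, so that reads counted at a gene measure how accessible it is and not how much RNA it makes. The 18 libraries fall into 6 groups of 3 biological replicates. All carried stably inserted or transfected Sleeping Beauty vectors and were given 1 µg/ml doxycycline for 48 h. The MLL-AF4 cells carried an inducible MLL-AF4 fusion, the AF4-MLL cells an inducible reciprocal AF4-MLL fusion, and the co-expression cells a constitutive MLL-AF4 together with an inducible AF4-MLL. MLL is the gene KMT2A, a histone methyltransferase, and AF4 is AFF1, a subunit of transcription elongation complexes. Libraries were taken on day 3, when the inducer was removed, and on day 28. On day 28 the co-expression cells still had their constitutive MLL-AF4, whereas the inducible proteins had been switched off since day 3. No library of cells without a fusion gene was among those analysed here, so each comparison is between days or between fusion settings.

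Clustered protocadherins are cell surface adhesion proteins related to cadherins. In neurons each cell chooses a small set of the variable genes, which gives the cell a surface identity that lets its branches recognise and avoid their own kind. In the alpha and gamma clusters each gene begins with its own promoter and a large variable exon, which is spliced to constant exons shared by the whole cluster, whereas beta genes are made of their variable exon alone. Most promoters carry a conserved sequence element with a CGCT core that is bound by CTCF, and choice of a promoter goes with loss of its DNA methylation and looping by CTCF and cohesin to a distant enhancer. The C-type genes PCDHAC1, PCDHAC2, PCDHGC3, PCDHGC4 and PCDHGC5, at the distal ends of the alpha and gamma clusters, are used more constantly than the others.

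In the GRCh38.p14 annotation of RefSeq all 53 genes lay on chromosome 5, with the alpha cluster at chr5:140786140-141012347, the beta cluster at chr5:141051374-141249365 and the gamma cluster at chr5:141330514-141512975. All 15 alpha entries end at the same base, as do all 22 gamma entries, because the models share their constant exons. RefSeq held a promoter (250 bases before to 50 bases after the start) for 47 of the 53 genes. The 120 bases before the start are printed here for the 3 genes with the most counts among the C-type genes, with every CGCT on the gene strand in capitals. They lie at chr5:140926179-140926298, chr5:141484910-141485029 and chr5:141475846-141475965, all on the plus strand.
PCDHAC1: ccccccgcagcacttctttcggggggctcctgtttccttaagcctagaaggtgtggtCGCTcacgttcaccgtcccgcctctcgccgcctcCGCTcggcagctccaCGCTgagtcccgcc
PCDHGC4: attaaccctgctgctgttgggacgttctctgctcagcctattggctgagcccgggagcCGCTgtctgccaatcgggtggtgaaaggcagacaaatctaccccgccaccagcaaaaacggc
PCDHGC3: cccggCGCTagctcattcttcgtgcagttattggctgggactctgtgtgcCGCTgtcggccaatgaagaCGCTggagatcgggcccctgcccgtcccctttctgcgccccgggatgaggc

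The next set gives the same window for PCDHA10, PCDHB13 and PCDHGA11, which had the most counts among the genes of their clusters that are not C-type, at chr5:140855777-140855896, chr5:141213799-141213918 and chr5:141420931-141421050 on the plus strand.
PCDHA10: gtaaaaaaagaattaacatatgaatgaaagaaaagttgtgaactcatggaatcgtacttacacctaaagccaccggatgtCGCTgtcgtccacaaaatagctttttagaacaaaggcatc
PCDHB13: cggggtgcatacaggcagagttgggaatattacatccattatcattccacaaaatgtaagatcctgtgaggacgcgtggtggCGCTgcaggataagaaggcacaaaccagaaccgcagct
PCDHGA11: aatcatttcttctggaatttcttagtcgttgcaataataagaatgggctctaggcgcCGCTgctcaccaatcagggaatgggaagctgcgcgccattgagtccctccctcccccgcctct

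The last set holds the genes with the lowest mean level in each cluster, PCDHA12, PCDHB10 and PCDHGB5, at chr5:140875188-140875307, chr5:141192233-141192352 and chr5:141397827-141397946 on the plus strand.
PCDHA12: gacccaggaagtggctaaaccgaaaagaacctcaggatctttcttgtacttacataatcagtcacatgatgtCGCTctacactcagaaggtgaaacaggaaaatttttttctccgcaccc
PCDHB10: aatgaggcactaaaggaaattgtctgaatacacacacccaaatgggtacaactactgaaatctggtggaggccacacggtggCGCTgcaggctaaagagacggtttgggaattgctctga
PCDHGB5: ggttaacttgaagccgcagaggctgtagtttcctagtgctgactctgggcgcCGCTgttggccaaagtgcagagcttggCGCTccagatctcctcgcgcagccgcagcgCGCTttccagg

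A CGCT stood between 100 and 31 bases before the start in 43 of the 47 promoters (91.5%), against 21.3% of 27305 promoters of all genes searched in the same window and on the gene strand only. The first letter of the match nearest to the start within this window lay at a median of 55 bases before the start, from 38 in PCDHA1 and 3 other genes to 95 in PCDHGA1. The window was drawn after the promoters had been looked at, and PCDHA9, PCDHB5, PCDHB8 and PCDHGB2 had no match in it. A match of 4 letters is a description of the sequence and not evidence of a bound site. Genes with many counts and genes with few both held a CGCT, as the 3 printed sets show.

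The promoters differed more in their CG dinucleotides, the sites of DNA methylation. The 4 C-type promoters held 15 to 27 of them in 300 bases, with 27 in PCDHAC1, 23 in PCDHGC4, 18 in PCDHGC3 and 15 in PCDHAC2. The 43 other promoters of the clusters held 2 to 16. The median was 7 for alpha genes 1 to 13, 7.5 for beta, 5 for the gamma A and 11 for the gamma B subfamily, against 13 for the promoters of all genes.

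Few reads fell on the clusters. Over 18 libraries with 442159 to 3539940 counts each, the 53 genes took 3468 counts in all, 1240 in alpha, 928 in beta and 1300 in gamma. A library held between 86 and 343 of them, and between 0 and 12 members had no count in it. Levels are given as CPM, the counts per 1000000 of the library size after scaling by the trimmed mean of M values. The median member had a mean of 2.09 CPM over the 18 libraries, above the 1.20 of all gene entries and the 0.823 of 348 olfactory receptor genes, another family of clustered genes that is mostly silent outside its own neurons, and below the 16.9 CPM of the genes that passed the filter on low counts. Ranked by mean CPM among all entries, the members stood at percentiles 44.8 to 74.8. Only 3 members passed that filter, PCDHAC1, PCDHGC4 and PCDHGA11, which is 5.66% of the members against 32.4% of all entries and 2.3% of the olfactory receptor genes. These levels, percentiles and shares are per entry and not per length, so they do not compare accessibility between families. The part of length in them was not tested. A count of 0 in a library allows up to 3 counts, a limit that covers counting error only.

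In the alpha cluster PCDHAC1 collected the most counts, 225, with a mean of 9.64 ± 2.86 CPM (SD, n = 18). PCDHA10 followed with 5.83 CPM and PCDHA4 with 5.45 CPM, whereas PCDHA12 was lowest with 1.39 CPM. PCDHAC1 stood first among alpha genes in 5 of the 6 groups. The exception was MLL-AF4 on day 28, where PCDHA4 (7.16 CPM), PCDHA10 (7.04 CPM) and PCDHAC1 (6.95 CPM) lay together within their spread. The other alpha C-type gene, PCDHAC2, had 70 counts and, at 2.85 CPM, was the median gene of the cluster.

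**Figure D1:**
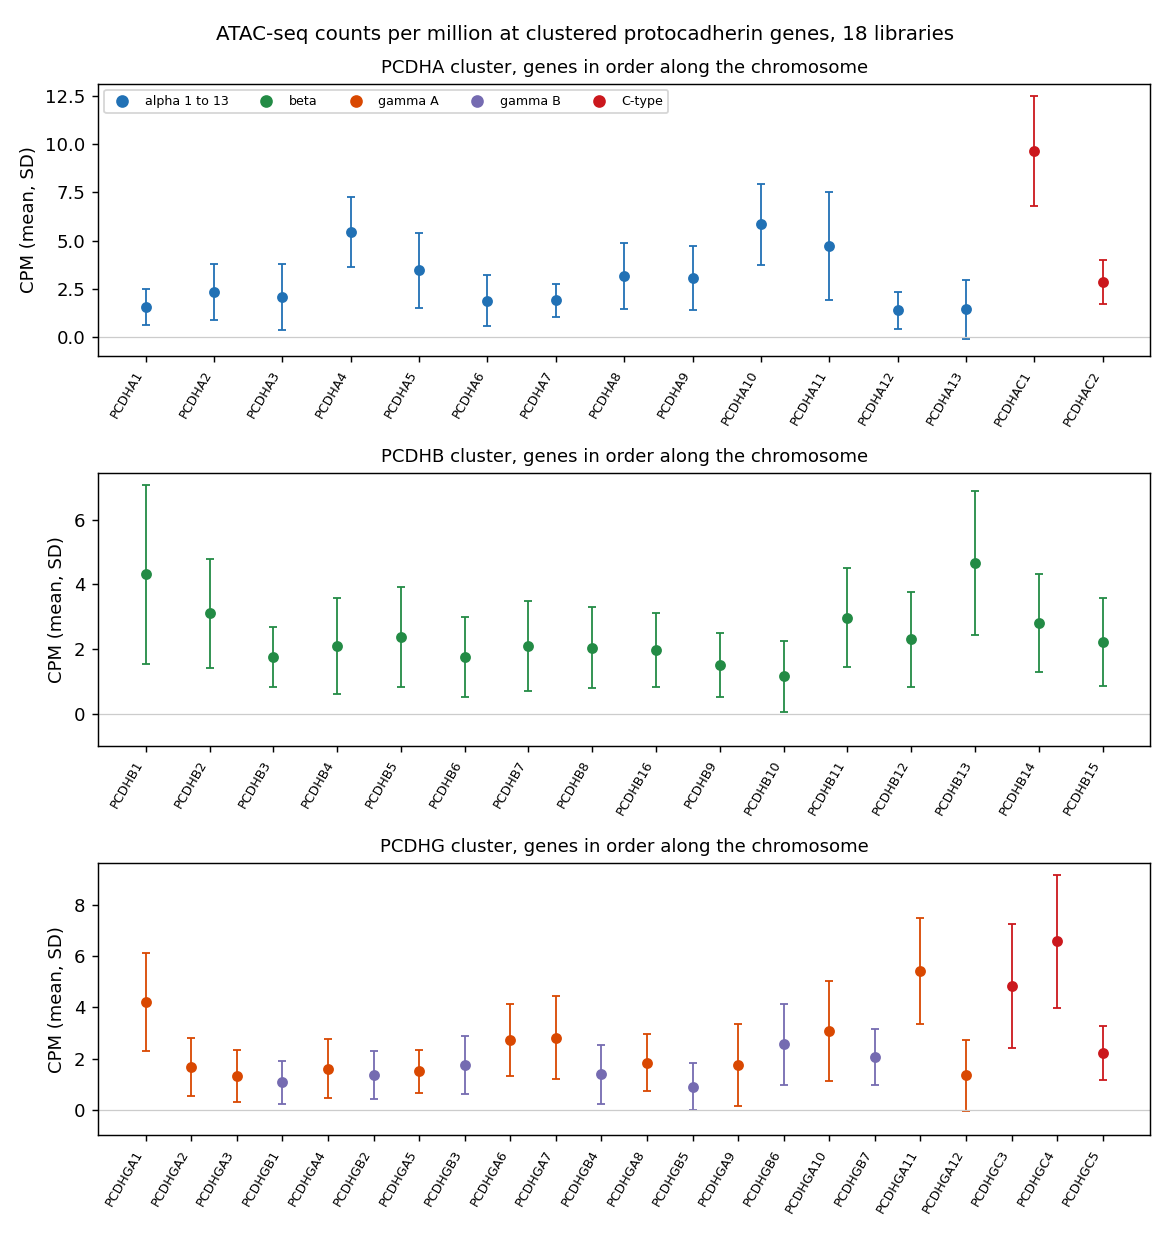
Mean CPM over 18 libraries (points) with its SD (bars) for each gene, ordered along chromosome 5 from left to right in the PCDHA (top), PCDHB (middle) and PCDHG (bottom) cluster and coloured by subfamily. PCDHAC1 at 9.64 CPM is the highest point, PCDHGC4 at 6.59 CPM is the highest of the gamma cluster, and most other genes lie under 5 CPM with bars that overlap those of their neighbours.

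In the gamma cluster PCDHGC4 (157 counts, 6.59 CPM), PCDHGA11 (133 counts, 5.43 CPM) and PCDHGC3 (107 counts, 4.83 CPM) came first, and PCDHGB5 was lowest with 24 counts and 0.907 CPM. The gamma B genes had the lowest median of any subfamily, 1.39 CPM over 7 genes, against 1.79 over 12 gamma A genes. PCDHGC5, the last gene before the constant exons, had 52 counts and 2.22 CPM. The 5 C-type genes together had a median of 4.83 CPM, against 2.33 for alpha genes 1 to 13 and 2.15 for beta. The features that the counts refer to were not stated, and no length belongs to them, so these orders are orders of counts and not of levels per length. Counts did not grow with the span of the nested models: PCDHA1, whose model of 226208 bases covers the whole alpha cluster, had 38 counts, and PCDHAC1, whose model covers 86049 bases, had 225. Reads in the constant exons belong to every alpha or every gamma entry, and how the authors' counting treated them was not given in the sources used here.

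Beta genes do not overlap each other and can be set side by side per length of the RefSeq gene. That length may differ from the counted feature, which was not stated. Per kilobase of the RefSeq gene, PCDHB13 was highest with 0.922 CPM per kilobase and PCDHB2 next with 0.758, and PCDHB9 was lowest with 0.345, just under PCDHB10 with 0.350. PCDHB1 lies alone at the proximal end of the cluster and is its longest gene at 7973 bases. It was second by counts (97 counts, 4.31 CPM) and slightly below the median gene per kilobase, with 0.541 CPM. The median of the 16 genes was 0.557 CPM per kilobase. Across the 16 beta genes counts were higher in longer genes (Pearson's r = 0.74 and Spearman's rho = 0.68 over genes of the same libraries, which are not independent replicates).

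Across the 47 genes with a promoter, mean CPM and CG count had a Pearson's r of 0.53 and a Spearman's rho of 0.15. Without the 4 C-type genes r was -0.039 and rho -0.058 over 43 genes, so the value over all 47 genes rested on the C-type genes. Those 4 had the same order by both measures, from PCDHAC1 down to PCDHAC2. Gamma B promoters were richer in CG than gamma A promoters and their genes had fewer counts. These are descriptions across genes that share libraries and are not adjusted for the length of what was counted.

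**Figure D2:**
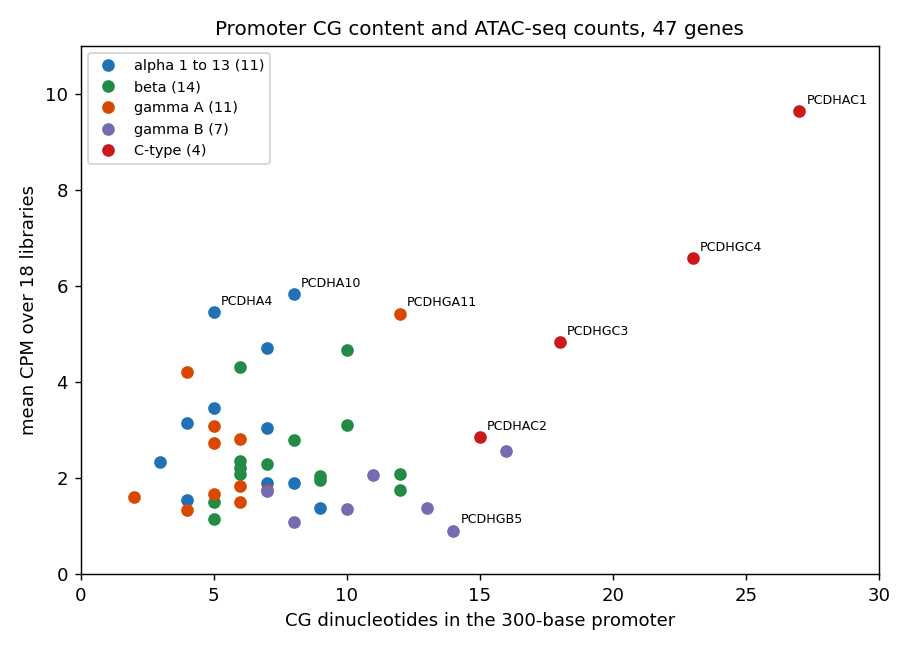
CG dinucleotides in the 300-base promoter (horizontal axis) against mean CPM over 18 libraries (vertical axis) for 47 genes, coloured by subfamily. The 4 C-type genes run from PCDHAC2 at 15 CG to PCDHAC1 at 27 CG and 9.64 CPM, and the other 43 genes show no slope (r = -0.039).

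Over the 53 genes, the group means correlated with a Pearson's r of 0.668 to 0.812 and a Spearman's rho of 0.503 to 0.773 (median 0.611) across the 15 pairs of groups, given as a description because the points share libraries and low counts. Counts of a member varied between replicates about as much as counting alone gives, with a median ratio of observed to Poisson variance of 0.958 within groups, against 1.05 for the tested genes. Between all 18 libraries the ratio was 1.03 for the members and 1.26 for the tested genes. The olfactory receptor genes, also sparsely counted, had 0.930 within groups and 1.09 between all libraries. At so few counts per gene the ratio is mostly set by counting error. For the summed counts of alpha, beta and gamma it was 1.09, 1.33 and 0.832 within groups. Between all libraries these sums had 1.77, 1.62 and 1.54.

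PCDHAC1 was the member with the most data. Its levels on day 3 were 8.93, 13.95 and 15.03 CPM in MLL-AF4 cells, 8.22, 10.1 and 8.48 CPM in the AF4-MLL setting, and 13.3, 9.69 and 7.51 CPM under co-expression. On day 28 they were 8.24, 7.25 and 5.37 CPM in MLL-AF4 cells, 11.1, 8.29 and 5.58 CPM in the AF4-MLL setting, and 11.8, 7.47 and 13.3 CPM under co-expression. The MLL-AF4 libraries of day 28 all lay below those of day 3, and the days overlapped in the other settings. The change in MLL-AF4 cells was -0.83 on the log2 scale (SE 0.39, 95% interval -1.59 to -0.064), with an adjusted p of 0.26 (edgeR's quasi-likelihood test with Benjamini-Hochberg adjustment over 17660 genes). It did not pass the test. The change over time under co-expression minus that in MLL-AF4 cells was 0.87 (SE 0.51, adjusted p = 0.589 in edgeR), and the same difference for AF4-MLL cells was 0.78 (SE 0.53, adjusted p = 0.653 in edgeR).

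PCDHGC4 had 12.3, 5.07 and 9.25 CPM in MLL-AF4 cells, 7.67, 1.45 and 5.39 CPM in the AF4-MLL setting, and 8.67, 5.22 and 6.15 CPM under co-expression on day 3. On day 28 its levels were 6.59, 9.48 and 6.27 CPM in MLL-AF4 cells, 5.21, 3.87 and 6.98 CPM in the AF4-MLL setting, and 6.58, 3.11 and 9.30 CPM under co-expression. All groups that were compared overlapped in this gene, which gives rise to the C-type protocadherin known to be needed for the survival of certain neurons. Its differences between AF4-MLL and MLL-AF4 cells were -0.65 on day 3 (SE 0.46) and -0.55 on day 28 (SE 0.41), with edgeR adjusted p = 0.697 and 0.779.

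PCDHGA11, a gamma A gene, had 5.58, 0 and 5.78 CPM in MLL-AF4 cells, 3.84, 5.79 and 9.25 CPM in the AF4-MLL setting, and 6.67, 6.71 and 6.15 CPM under co-expression on day 3. On day 28 it had 4.12, 7.25 and 3.58 CPM in MLL-AF4 cells, 8.47, 3.87 and 4.88 CPM in the AF4-MLL setting, and 4.23, 6.23 and 5.32 CPM under co-expression. The 3 co-expression libraries lay above the 3 MLL-AF4 libraries on day 3, by 0.72 on the log2 scale (SE 0.55, adjusted p = 0.582 in edgeR), and all other groups that were compared overlapped. Without replicate 2 of MLL-AF4 on day 3, the library with no count, that difference was 0.19.

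**Figure D3:**
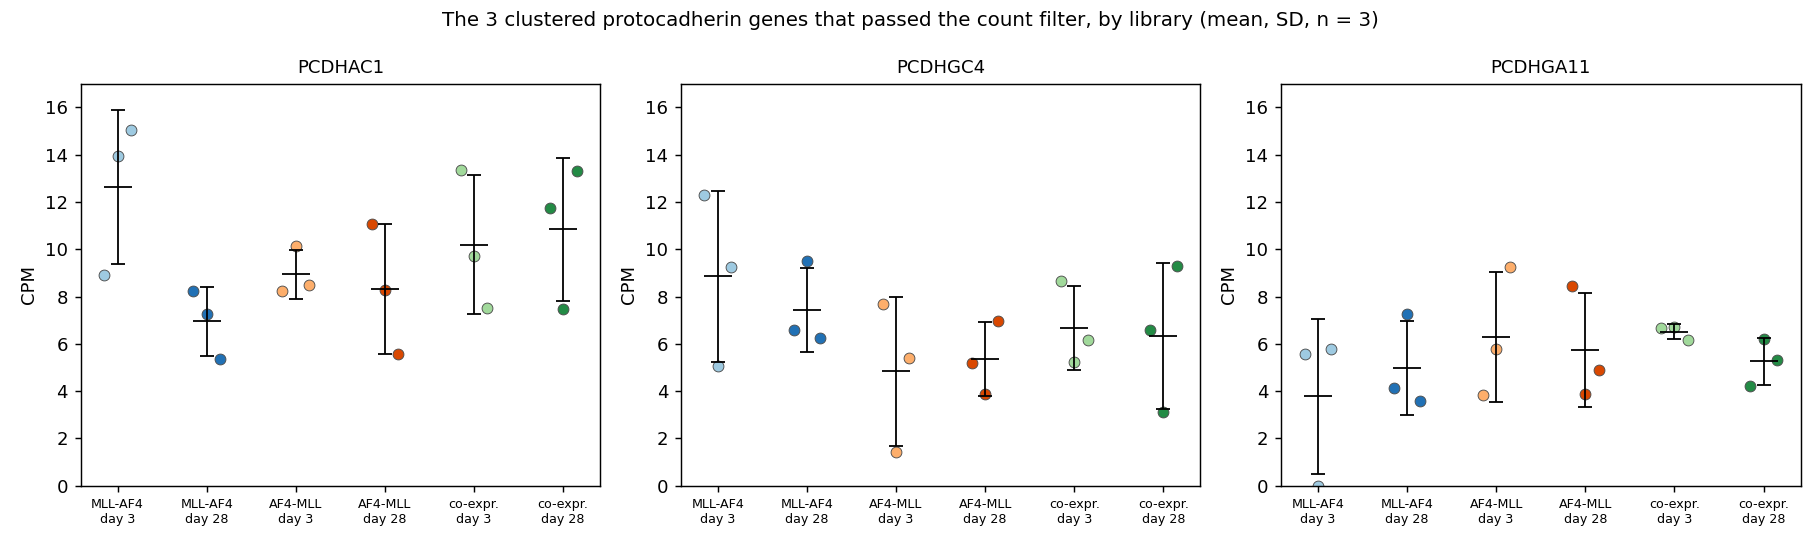
CPM of PCDHAC1, PCDHGC4 and PCDHGA11 in each library (points), with the mean (line) and SD (bars) of the 3 replicates of each setting and day. PCDHAC1 is lower in all 3 MLL-AF4 libraries of day 28 than in those of day 3 without passing the test (edgeR adjusted p = 0.26), and the other groups mostly overlap.

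None of the 3 tested members was called at an adjusted p under 0.05 in edgeR in any of 12 contrasts, and PCDHAC1 over time in MLL-AF4 cells was the only one at an unadjusted p under 0.05 in edgeR. The Wald test of DESeq2 gave 0 members an unadjusted p under 0.05. It gave the 3 members an adjusted p in only 3 of the 12 contrasts, none of them called, because its filter on mean counts left them out of the adjustment in the other 9. The share of all tested genes called gives the background. Over time it was 2.87% in MLL-AF4 cells, 0.606% in the AF4-MLL setting and 0.606% under co-expression. On day 3 it was 1.81% between co-expression and MLL-AF4, 1.28% between co-expression and AF4-MLL and 0.142% between AF4-MLL and MLL-AF4, and on day 28 it was 1.17%, 1.69% and 0.0793% in the same order. For the differences between settings in the change over time it was 0.232% (co-expression minus MLL-AF4), 0% (co-expression minus AF4-MLL, where 892 genes had an unadjusted p under 0.05 in edgeR and DESeq2 also called 0) and 0.317% (AF4-MLL minus MLL-AF4). With only 3 members tested, shares of this size amount to less than 1 gene. The intervals of the members were wide, and that of PCDHGA11 over time in MLL-AF4 cells ran from -0.71 to 1.57 on the log2 scale.

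The other 50 members had too few counts for that fit. With no filter on counts, edgeR called none of the 53 members in any of the 9 contrasts between days or settings, and the lowest adjusted p of a member was 0.353, of PCDHA11 between the co-expression and MLL-AF4 settings on day 3. Under looser thresholds modelled on those of the study (unadjusted p under 0.05, here from edgeR, a log2 change over 1 in size and a mean count over 2 in the libraries compared), 0 to 3 members passed in each contrast. Over time 2 of 36 members with a mean count over 2 passed in MLL-AF4 cells, 2 of 41 in the AF4-MLL setting and 1 of 43 under co-expression, against 4.42%, 2.98% and 2.76% of all genes with such a mean. On day 3 it was 2 of 29 between co-expression and MLL-AF4 (3.69% of all genes), 3 of 35 between co-expression and AF4-MLL (2.81%) and 1 of 28 between AF4-MLL and MLL-AF4 (2.6%). On day 28 it was 3 of 45 (2.51%), 1 of 49 (2.86%) and 0 of 47 (1.79%) in the same order. With so few members counted, 1 gene more or less moves their share by about as much as the whole share over all genes.

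The thresholds were also applied to p-values and log2 changes from a separate DESeq2 fit with no filter on counts. There 0 to 2 members passed in each of the 9 contrasts. Over time these were PCDHGA1 in MLL-AF4 cells (2.57% of all genes with such a mean), none in the AF4-MLL setting (1.52%) and PCDHA10 under co-expression (1.68%). On day 3 they were none between co-expression and MLL-AF4 (2.56%), PCDHGB7 between co-expression and AF4-MLL (1.74%) and PCDHA8 between AF4-MLL and MLL-AF4 (1.43%). On day 28 they were PCDHB5 and PCDHB14 (1.47%), none (1.55%) and none (0.733%) in the same order.

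The members that passed these thresholds in edgeR were named after their values were seen, and each rests on few reads. On day 3 PCDHA11 had 12, 13 and 6 counts under co-expression. The MLL-AF4 libraries of that day held 1, 5 and 1 counts of it and the AF4-MLL libraries 8, 0 and 5. On the log2 scale its value under co-expression exceeded that in MLL-AF4 cells by 1.49 (SE 0.58) and that in the AF4-MLL setting by 1.12 (SE 0.49), and both comparisons share the co-expression libraries. Co-expression libraries of day 28 had 8, 5 and 4 counts of it. PCDHB2 had 12, 7 and 5 counts under co-expression on day 3 while the MLL-AF4 libraries of that day had 2, 1 and 3, and the co-expression libraries of day 28 had 6, 3 and 3. PCDHGB7 had 4 counts in each co-expression library and 1, 0 and 1 in the AF4-MLL setting on day 3. The 2 that passed over time in the AF4-MLL setting were PCDHA13, with 1, 0 and 1 counts on day 3 and 8, 4 and 3 on day 28, and PCDHGA10, with 2, 4 and 1 counts on day 3 and 11, 6 and 6 on day 28. In MLL-AF4 cells they were PCDHGA1 (log2 change -1.28, SE 0.61) and PCDHGA4 (2.04, SE 1.03). PCDHA5 and PCDHA8 on day 3, and PCDHB5, PCDHB14, PCDHB15 and PCDHGA12 on day 28, made up the rest. They came from all 3 clusters, and the neighbours PCDHB14 and PCDHB15 differed in opposite directions (1.63 and -1.63) between the co-expression and MLL-AF4 settings on day 28.

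Among the members named for their level, PCDHA10 had 4, 3 and 4 counts in MLL-AF4 cells, 12, 3 and 6 in the AF4-MLL setting and 4, 5 and 7 under co-expression on day 3. On day 28 it had 11, 12 and 6, 7, 10 and 15, and 15, 14 and 6 counts. In CPM its mean was 4.30 and 7.04 on day 3 and day 28 in MLL-AF4 cells, 5.18 and 6.85 in the AF4-MLL setting and 3.73 and 7.91 under co-expression. The last of these had the smallest p of the 3 (0.99 on the log2 scale, SE 0.45, adjusted p = 0.742 in edgeR with no filter). PCDHA4 went from 5.02 to 7.16, from 3.70 to 5.30 and from 4.89 to 6.64 CPM in the same order of settings, PCDHB13 from 5.14 to 5.31, from 3.98 to 6.29 and from 3.27 to 4.01 CPM, and none of these differences passed. PCDHGC3 was 4.70 and 5.96 CPM in MLL-AF4 cells, 5.53 and 3.47 CPM in the AF4-MLL setting and 4.24 and 5.08 CPM under co-expression. PCDHB10 had 3, 4 and 0 counts summed over the 3 libraries of MLL-AF4, AF4-MLL and co-expression cells on day 3 and 9, 7 and 2 on day 28. PCDHGB5 had 0, 6 and 3 counts on day 3 and 7, 5 and 3 on day 28 in the same order.

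Because so few reads fell on each gene, the clusters were also summed. These sums carry no test, since the members were chosen as a family with earlier results known. The sum over all 53 genes in MLL-AF4 cells was 144 ± 5.32 CPM on day 3 and 161 ± 7.92 CPM on day 28 (SD, n = 3). It was 119 ± 8.08 and 152 ± 11.3 CPM in the AF4-MLL setting and 128 ± 8.57 and 159 ± 3.21 CPM under co-expression. In each setting the 3 libraries of day 28 lay above the 3 of day 3, by 1.11-, 1.28- and 1.24-fold, but when libraries were scaled to their nuclear counts the days overlapped in all 3 settings and the direction turned in MLL-AF4 cells (log2 differences -0.023, 0.13 and 0.091). That scaling lowered the median of all tested genes between the days by 0.18, 0.22 and 0.22 on the log2 scale. A change of scaling moves the sums and that median together. The sums were higher on day 28 relative to that median, which therefore holds under either scaling and adds no separate evidence.

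By cluster, the alpha sum in the AF4-MLL setting was 37.9 ± 9.13 CPM on day 3 and 52.5 ± 6.46 CPM on day 28 and did not overlap, and it was 51.0 ± 8.61 and 55.3 ± 0.721 CPM in MLL-AF4 cells and 48.9 ± 3.92 and 58.7 ± 4.90 CPM under co-expression, where the days overlapped. The gamma sum in the AF4-MLL setting, 44.7 ± 2.93 CPM on day 3 and 58.7 ± 2.73 CPM on day 28, did not overlap under either scaling. In MLL-AF4 cells it was 52.8 ± 11.8 and 61.7 ± 1.495 CPM and under co-expression 47.4 ± 2.63 and 58.6 ± 11.0 CPM, with overlap. The beta sum under co-expression was 32.0 ± 2.38 and 41.3 ± 5.11 CPM without overlap, against 40.7 ± 6.91 and 43.8 ± 9.72 CPM in MLL-AF4 cells and 36.0 ± 10.1 and 40.6 ± 3.74 CPM in the AF4-MLL setting, with overlap. Scaled to nuclear counts, the alpha sum in the AF4-MLL setting and the beta sum under co-expression also overlapped between days, whereas with the size factors of DESeq2 the alpha sum under co-expression did not overlap (48.8 and 58.6 CPM). Scaled to nuclear counts, the alpha and beta sums of MLL-AF4 cells and the beta sum of AF4-MLL cells turned to slightly lower on day 28 (-0.060, -0.068 and -0.053 on the log2 scale).

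**Figure D4:**
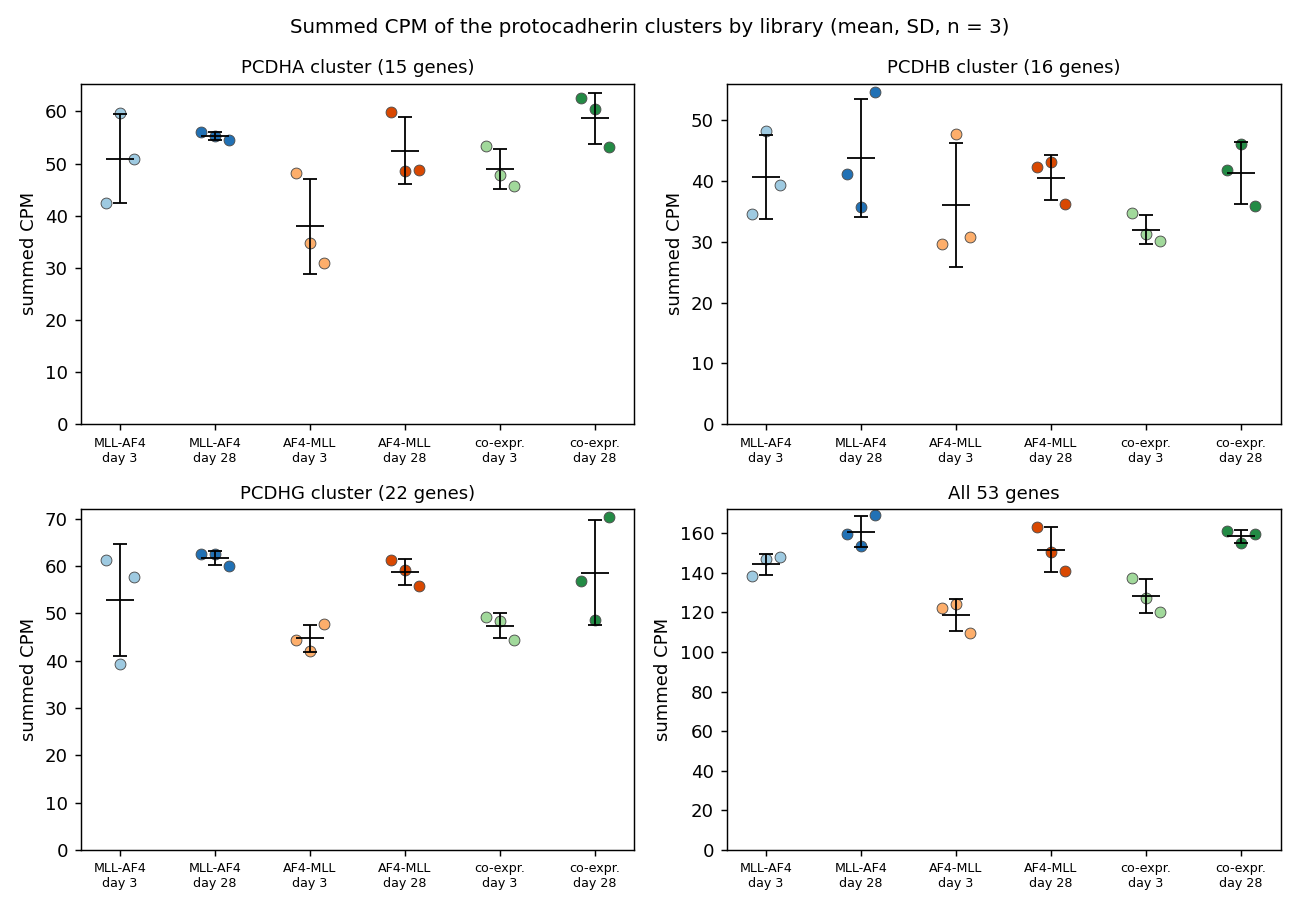
Summed CPM of the PCDHA, PCDHB and PCDHG cluster and of all 53 genes in each library (points), with the mean (line) and SD (bars) of the 3 replicates of each setting and day. For all 53 genes the day 28 libraries lie above the day 3 libraries in each setting, which did not hold when libraries were scaled to their nuclear counts, where the days overlapped and the MLL-AF4 difference was -0.023 on the log2 scale.

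Other sparsely counted genes also had higher sums on day 28. The sum of the 348 olfactory receptor genes was 392 ± 22.6 and 526 ± 27.4 CPM in MLL-AF4 cells, 409 ± 43.6 and 552 ± 74.0 CPM in the AF4-MLL setting and 342 ± 16.8 and 468 ± 19.2 CPM under co-expression, 1.34-, 1.35- and 1.37-fold higher on day 28. The nuclear entries below the filter on counts, which include 50 of the 53 members, were higher on day 28 by 1.23-, 1.21- and 1.23-fold. Mitochondrial reads took 32.7% to 45.6% of the counts on day 3 and 63.6% to 68.5% on day 28. Under the main scaling all 3 measures separated the days in every setting. Scaled to nuclear counts, the olfactory receptor sum was higher on day 28 by 0.25, 0.21 and 0.24 on the log2 scale and that of the entries below the filter by 0.12, 0.051 and 0.089, with overlap of the days in the AF4-MLL setting in both. The part of these measures in the sums of the protocadherin clusters was not tested. Set against the olfactory receptor sum of the same library, the protocadherin sum was lower on day 28, with log2 differences of -0.27, -0.082 and -0.15 in MLL-AF4, AF4-MLL and co-expression cells. Day 28 libraries were also deeper in the mean, and the labels give no preparation dates, so the day and anything handled day by day cannot be told apart.

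Between settings on the same day the alpha, beta and gamma sums overlapped in all 18 comparisons under the main scaling and under scaling to nuclear counts. With the size factors of DESeq2 the beta sum on day 3 was lower under co-expression than in MLL-AF4 cells without overlap (31.9 against 40.7 CPM). On day 3 the sum of all members was lower in the AF4-MLL setting (119 CPM) and under co-expression (128 CPM) than in MLL-AF4 cells (144 CPM), without overlap and under both scalings, and these comparisons share the MLL-AF4 libraries. The olfactory receptor sum was also lower in co-expression than in MLL-AF4 cells on day 3 (0.874-fold, against 0.888-fold for the protocadherins), while AF4-MLL and MLL-AF4 cells overlapped in it. Set against the olfactory receptor sum, the protocadherin difference between the co-expression and MLL-AF4 settings on day 3 was 0.022 on the log2 scale. On day 28 the 3 settings lay between 141 and 169 CPM and overlapped in each pair.

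The genes that act on the clusters were followed as lists. In the main fit 2.87% of all tested genes were called over time in MLL-AF4 cells. Between co-expression and MLL-AF4 on day 3 the share was 1.81%. Of 14 genes of chromatin architecture (CTCF, cohesin and its loaders and releasers), all tested, STAG1, a cohesin subunit, rose over time in MLL-AF4 cells from 8.52 ± 3.26 to 18.6 ± 2.97 CPM (log2 change 1.12, SE 0.34, adjusted p = 0.0414 in edgeR). No other architecture gene was called in any of the 12 contrasts, and the list's median change over time in MLL-AF4 cells was 0.020, against 0.0044 for all tested genes. Of 16 genes of silencing and DNA methylation, DNMT3B, a de novo DNA methyltransferase, rose from 5.62 ± 2.90 to 14.7 ± 4.38 CPM over time in MLL-AF4 cells (1.37, SE 0.41, adjusted p = 0.0385 in edgeR). UHRF1, which brings the maintenance methyltransferase to newly copied DNA, rose from 5.40 ± 3.06 to 15.3 ± 1.27 CPM (1.48, SE 0.40, adjusted p = 0.0151 in edgeR). UHRF1 was also higher under co-expression on day 3, with 16.1 ± 3.01 CPM (1.55, SE 0.39, adjusted p = 0.0119 in edgeR), against the same MLL-AF4 libraries of day 3. The median of the silencing list over time in MLL-AF4 cells was 0.24. Scaled to nuclear counts, UHRF1 kept its calls, whereas STAG1 and DNMT3B missed the threshold in edgeR (adjusted p = 0.0706 and 0.0556), as they did without a filter (0.0797 for both). DESeq2 gave no adjusted p to STAG1, DNMT3B or UHRF1 in these contrasts, because their mean counts were under its filter, so none of these calls had a second tool behind it. STAG1 also lost its call without replicate 1 or 2 of either day (adjusted p up to 0.241 in edgeR), DNMT3B without replicate 2 or 3 of day 28 or replicate 1 or 3 of day 3 (up to 0.258), UHRF1 over time without replicate 2 of day 28 or replicate 2 or 3 of day 3 (up to 0.131), and UHRF1 against co-expression cells without replicate 2 or 3 of the MLL-AF4 libraries (up to 0.119). These values are accessibility at the genes, and neither their RNA nor DNA methylation of the protocadherin promoters was measured here.

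Of 16 partners of protocadherin signalling, NCKAP1, a member of the WAVE complex that builds actin branches, fell over time in MLL-AF4 cells from 108 ± 6.72 to 75.4 ± 9.62 CPM (-0.49, SE 0.13, adjusted p = 0.0197 in edgeR). ADAM10, the protease that sheds protocadherins, was higher in co-expression than in MLL-AF4 cells on day 3, 43.8 ± 4.30 against 24.5 ± 5.16 CPM (0.84, SE 0.21, adjusted p = 0.0117 in edgeR). Of 12 non-clustered protocadherins, which are single genes elsewhere in the genome, 10 were tested, and PCDH9 and PCDH10 fell over time in MLL-AF4 cells. In the main fit 2.87% of all tested genes were called in that contrast. PCDH9 went from 284 ± 27.2 to 215 ± 18.4 CPM (-0.40, SE 0.12, adjusted p = 0.0324 in edgeR) and PCDH10 from 117 ± 5.15 to 87.7 ± 11.9 CPM (-0.43, SE 0.13, adjusted p = 0.0378 in edgeR). Neither was called in another contrast, though scaled to nuclear counts PCDH10 was lower on day 28 in all 3 settings and PCDH1 in MLL-AF4 cells. That scaling called 6.16%, 3.61% and 4.78% of all tested genes lower on day 28 in MLL-AF4, AF4-MLL and co-expression cells. With 1 library left out at a time the adjusted p in edgeR rose to at most 0.1 for NCKAP1 (without replicate 1 or 3 of day 28, or 2 or 3 of day 3, it was not called), 0.155 for ADAM10 (without MLL-AF4 replicate 1 or co-expression replicate 2), 0.203 for PCDH9 (without replicate 2 or 3 of day 28, or 1 or 2 of day 3) and 0.193 for PCDH10 (without any library of the 2 groups but replicate 1 of day 28). ADAM10 was not called by DESeq2 (adjusted p = 0.0679), whereas NCKAP1, PCDH9 and PCDH10 were (adjusted p = 0.0299, 0.0200 and 0.0490 in DESeq2). Without a filter on counts NCKAP1, PCDH9 and PCDH10 were not called in edgeR (adjusted p = 0.182, 0.26 and 0.31).

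The genes on either side of the clusters gave a view of the region. Of 34 symbols of neighbouring genes on chromosome 5, 32 were found, 29 were tested and 0 were called in any of the 12 contrasts in edgeR, in which 0 to 8 had an unadjusted p under 0.05. DESeq2 also called 0, among the 1 to 29 of them to which it gave an adjusted p. Scaled to nuclear counts, 6 of the 29 (20.7%) were lower on day 28 in MLL-AF4 cells, 0 in the AF4-MLL setting and 4 (13.8%) under co-expression, against 6.16%, 3.61% and 4.78% of all tested genes. Their median level was 18.7 CPM, against 2.09 CPM for the protocadherins between them. Their summed level in MLL-AF4 cells was 813 to 854 CPM on day 3 and 633 to 691 CPM on day 28, without overlap and downwards, with a median log2 change of -0.33 over the 29 tested genes against 0.0044 for all tested genes, while the protocadherin sum was 1.11-fold higher in the same libraries under the main scaling. The fall was not particular to the neighbours. Over time in MLL-AF4 cells the 10 tested non-clustered protocadherins had a median log2 change of -0.39. The medians of the other lists ran from -0.061 (neuron markers) to 0.24 (silencing). In AF4-MLL cells the neighbours summed to 677 to 743 and 672 to 695 CPM and under co-expression to 736 to 766 and 716 to 735 CPM.

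Markers of kidney, blood and neurons were followed beside the clusters. Of 11 kidney genes 10 were tested, of 7 neuron genes 6 and of 7 blood genes 5. The summed kidney genes ranged from 155 to 204 CPM, the neuron genes from 60.9 to 89.5 CPM and the blood genes from 61.6 to 87.9 CPM over the 18 libraries, and no list had a gene at 0 in all libraries. In ATAC-seq reads fall on genes that a cell does not express, so these markers cannot show that cells of another type were absent. The only marker called under the main scaling was PTPRC, the leukocyte antigen CD45, which was lower in co-expression than in the AF4-MLL setting on day 28, 7.92 ± 1.04 against 18.6 ± 5.36 CPM (-1.22, SE 0.29, adjusted p = 0.00627 in edgeR). In that contrast 1.69% of all tested genes were called in the main fit. PTPRC was not called by DESeq2 (adjusted p = 0.143), nor in edgeR without AF4-MLL replicate 1 or 2 or co-expression replicate 2 (adjusted p up to 0.0748). SPI1, a transcription factor of blood cells, was called only when libraries were scaled to nuclear counts, lower on day 28 under co-expression. That scaling called 4.78% of all tested genes lower in the same contrast. At KMT2A, AF4-MLL libraries had 96.5 ± 12.6 CPM on day 3 and 94.0 ± 9.53 CPM on day 28, MLL-AF4 libraries 35.7 ± 6.94 and 45.4 ± 1.74 CPM and co-expression libraries 52.8 ± 5.09 and 67.4 ± 10.9 CPM. The 3 settings did not overlap on either day, and reads of the fusion construct and of the chromosomal gene were not separated.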

How the data were processed

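ATAC-seq libraries of HEK293T cells were analysed from 1 deposited table of raw read counts per gene and library, made by the authors; the submitters' processing notes name bcl2fastq, Bowtie2, HTSeq and GRCh38, without versions, and the counted feature, read filtering, duplicate removal and any shift for the transposase were not given in the sources used here. Groups came from the sample titles, with 3 biological replicates each. Counts were fitted with edgeR 4.0.16 in R 4.3.3 (quasi-likelihood F test, 6 groups over 18 libraries, TMM scaling, filterByExpr with a minimum count of 10 and a minimum total of 15), with Benjamini-Hochberg adjustment over 17660 genes and a threshold of 0.05 in 12 contrasts. DESeq2 1.42.0 was an alternative. The step was tested on simulated counts. Members were entries with symbols starting PCDHA, PCDHB or PCDHG and no pseudogene in the description. Members, lists and contrasts were chosen with earlier results of these data known.

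Named were members called in any contrast, the 3 highest and the lowest of each cluster by mean CPM, the C-type genes, and the tested member with the smallest p in each of 9 contrasts; members passing thresholds modelled on the study's were named after their values were seen. The gene lists (architecture, silencing, signalling partners, non-clustered protocadherins, neighbours, and kidney, blood and neuron markers) were written by hand. Promoters came from RefSeq (GRCh38.p14), with the most upstream start of each gene. Library totals ran from 442159 to 3539940 counts, of which 297567 to 1116380 were nuclear, and the biological coefficient of variation was 7.48%. Replicates were separate biological samples per the labels, and on that ground all libraries were kept as separate replicates. The 18 replicate pairs had a chi-square per degree of freedom of 1.06 to 1.38, close to the 1 of counting noise though above it in each pair. Such values cannot tell separate cultures from repeat libraries of the same culture. Other scalings, filters, the block on replicate number and omission of each library were run as alternatives. Positions of reads within genes were not analysed here.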

Additional observations from a re-analysis of the deposited data

How the results depend on the processing

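No member was called in edgeR in the 12 contrasts under the other scalings, filters (none, or a minimum count of 5, with 25 members tested), the omission of each library or the inclusion of pseudogene entries. DESeq2, fitted to the filtered genes with its own size factors, called none in the 3 contrasts in which it adjusted the p of members. Thresholds modelled on the study's without a filter were an alternative chosen after seeing the data. In edgeR they gave 2 members over time in MLL-AF4, 2 in AF4-MLL and 1 in co-expression cells. On day 3 they gave 2 (co-expression against MLL-AF4), 3 (against AF4-MLL) and 1 (the 2 inducible settings). On day 28 they gave 3 and 1 (co-expression against MLL-AF4 and AF4-MLL). The differences of change over time gave 2, 1 and 1. With the p-values and log2 changes of a separate DESeq2 fit without a filter they gave 1, 0 and 1 over time. That fit gave 0, 1 and 1 on day 3 and 2, 0 and 0 on day 28. Same-numbered replicates did not deviate together (correlations from -0.10 to 0.03 over 45 pairs). Replicates differed by little more than counting noise, so low correlations cannot show whether the numbers pair the samples. With a replicate block 0 members were called in each contrast, and 491 genes against 506 over time in MLL-AF4 cells.

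Scaled to nuclear counts, the log2 difference between days was -0.060 (alpha, MLL-AF4), -0.023 (all members, MLL-AF4), 0.17 (gamma, AF4-MLL), 0.13 (all members, AF4-MLL), 0.047, 0.15, 0.093 and 0.091 (alpha, beta, gamma and all members, co-expression), against main values of 0.12, 0.15, 0.39, 0.35, 0.26, 0.37, 0.31 and 0.31. This scaling called 1223, 708 and 914 genes over time, against 506, 107 and 107; without a filter 248, 91 and 99 were called and by DESeq2 261, 67 and 68. Between settings, DESeq2 called 77, 33 and 15 genes on day 3 against 319, 226 and 25, and 23, 43 and 2 on day 28 against 206, 299 and 14; no filter gave 265, 107 and 10, and 103, 123 and 4; nuclear scaling gave 12 between AF4-MLL and MLL-AF4 on day 3. For the differences of change over time DESeq2 called 17, 0 and 22 against 41, 0 and 56, and no filter 30, 0 and 26; a minimum count of 5 gave 25 for the first. DESeq2 adjusted over fewer genes in 9 of the 12 contrasts; the causes were not otherwise tested.

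Without its highest member the alpha sum changed over time in MLL-AF4 cells by 0.33 and the sum of all members by 0.22, and alpha differed by -0.014 between co-expression and MLL-AF4 on day 28. Set against the olfactory receptor sum, an alternative chosen after seeing the data, alpha, beta, gamma and all members differed between days by -0.30, -0.32, -0.21 and -0.27 in MLL-AF4, 0.011, -0.25, -0.038 and -0.082 in AF4-MLL and -0.19, -0.083, -0.15 and -0.15 in co-expression cells. On day 3 this gave 0.14, -0.15 and 0.022 for alpha, beta and all members between co-expression and MLL-AF4, and 0.33 and 0.36 for gamma and all members between co-expression and AF4-MLL. On day 28 it gave 0.25 and 0.15 for alpha and all members between co-expression and MLL-AF4, 0.39, 0.26, 0.22 and 0.29 for the 4 sums between co-expression and AF4-MLL, and -0.13 for gamma between AF4-MLL and MLL-AF4.

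With each library left out in turn the sum of all members differed between days by 0.11 to 0.18 in MLL-AF4, 0.30 to 0.40 in AF4-MLL and 0.26 to 0.35 in co-expression cells. PCDHGC4 over time in AF4-MLL cells ranged from -0.36 to 0.38 and PCDHAC1 between co-expression and AF4-MLL on day 3 from -0.011 to 0.42; the first turned positive without AF4-MLL replicate 1 of day 3 or replicate 2 of day 28, and the second turned negative without co-expression replicate 1. Depth limits the members: at 24 to 225 counts per gene over 18 libraries, only large differences could pass a test.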
